A study of Mus musculus with 22 samples.

Results

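Chromatin regions that were open 14 days after YAP1 was switched off in mouse hepatoblastoma, and in none of the later or normal liver samples, are described here. They were chosen by their readout: intervals of the day 14 list, on chromosomes 1 to 19 and X and at least 100 bp wide, that share no base with any interval of the day 33, day 64 or liver list. The rule found 12355 regions among 218811 day 14 intervals of that width (5.646%), out of 3975127 intervals of any width in the 5 lists. Their absence from those 3 lists is therefore the selection and not a result. Overlap with the list of tumors in which YAP1 was on, genomic place, nearby genes and RNA were not used to choose them.

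ATAC-seq cuts open DNA with a transposase, so that promoters and enhancers in use are read out as intervals of dense cutting. YAP1 is a co-activator that binds DNA through TEAD factors and drives growth and progenitor genes in liver, and hepatoblastoma is a liver tumor seen mostly in young children. Hepatocytes hold their identity through enhancers bound by factors such as HNF4A, ONECUT1 and C/EBP proteins, many of them inside the bodies of genes for metabolism and secretion. Growth hormone acts on hepatocytes through its receptor GHR, raises Igf1 and the feedback genes Cish and Socs2, and through its pattern of release sets most differences between male and female mouse liver.

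The ATAC libraries were 1 each of YAP1 on, YAP1 off at days 14, 33 and 64, and liver labelled WT, so a comparison between them has no replicate check and carries no test. Their labels give the treatment and liver as source, and no strain, sex or cell sorting. RNA came from other mice and times: 4 tumors on doxycycline (YAP1on) and 4 tumors off doxycycline for 6 days (day 6), all from B6N.FVB(Cg) mice with Tg(CAG-rtTA3)4288Slowe/J, in which the CAG promoter drives the doxycycline switch rtTA3, 3 hbHep mice at days 114, 117 and 121, and hepatocytes of 3 mice on NTBC (FAH liver below). The hbHep and FAH liver groups both carry FAH Delta Exon 5, and the FAH liver samples are also titled WT. NTBC is a drug that keeps mice without Fah, an enzyme of tyrosine breakdown, alive. The series title speaks of tumor cells that turn into hepatocyte-like cells, and the labels do not spell out hbHep. All 4 tumors of a group carry the same mouse code. A difference between the tumor groups can thus stem from the mouse, the treatment or both. The limma fit used 1 estimate of spread per gene over the 4 RNA groups. Its p-values between tumor groups therefore rest on spread among tumors of 1 mouse and among the hbHep and FAH liver mice. They hold no spread between mice within a tumor group. Fewer cells of a type and less RNA per cell cannot be told apart in these bulk samples.

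Some libraries stood apart before any region was described. RNA of Ddx3y, a gene of chromosome Y, was at 4.821 to 29.42 in the 8 tumors but at 1691 to 3456 in hbHep and FAH liver, in the abundance unit used for RNA throughout (scaled reads per base). In the ATAC lists, Eif2s3y with 5 kb on either side held 1 interval in YAP1on, 0 at day 14, 13 at day 33, 7 at day 64 and 6 in liver, and Ddx3y 3, 3, 30, 20 and 16. The other 2 chromosome Y genes looked at differed: in the same order Kdm5d held 3, 23, 12, 10 and 9 intervals and Uty 17, 53, 60, 41 and 37. Xist, the RNA that silences an X chromosome in females, held 62 and 100 intervals in YAP1on and day 14, and 9, 8 and 4 in the other lists. Xist and 2 of the 4 chromosome Y genes thus differed between the day 14 list and the lists it is compared with, while Kdm5d was highest at day 14. The labels give no sex, and its part in the regions was not tested. The day 14 list was also the longest, with 1023760 intervals against 780497, 769500 and 571520 for day 33, day 64 and liver, and the part of list length in the number of regions was not tested. By the same rule 707 regions (0.374% of its wide intervals) were found at day 33 only, 2946 (1.636%) at day 64 only and 294 (0.2929%) in liver only. Yap1 RNA, which checks the labels, was 8404 ± 2417 in YAP1on and 1167 ± 62.6 in day 6 tumors (SD, n = 4 each; exact permutation test, two-sided, p = 0.0286, the smallest 4 against 4 can give).

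Sequences can be shown for regions that reach into the 250 bases before an annotated start, from RefSeq on GRCm38.p6 (mm10). Those printed here lie at genes that fell from YAP1on to day 6 tumors. All but the one at Mchr1 overlapped YAP1on, and each is written 5′ to 3′ on the strand of the gene. Capitals mark a match, on either strand, to one of 16 short motifs: TEAD GGAATG, AP-1 TGANTCA, HNF4 CAAAGTCCA and its shorter form CAAAGTC, C/EBP TTGCNNAA, forkhead TGTTTAC, HNF1 GTTAAT, ETS GGAAGT, PU.1 GAGGAAG, RUNX TGTGGTT, NF-kB GGGANTTCC, CTCF core AGNNGGCGC, E-box CAGCTG, SP/KLF GGGCGG, SOX ACAATGG and nuclear factor I TTGGCA. The ETS and PU.1 motifs and both HNF4 forms can overlap each other. The upstream region of Fgfbp1 (chr5:43981912-43982047, minus strand, 248 to 113 bases before the start) and the next one (chr5:43981810-43981923, 124 to 11 bases before) overlap each other, and neither holds a match. The next one is labelled below as at the start but ends 11 bases before it. Another region, chr5:43981691-43981856, spans the start and is not printed. The Pla2g5 region (chr4:138819279-138819383, minus strand, 126 to 22 bases before the start) holds GGAATG, the core bound by TEAD factors. The Krt7 region (chr15:101412224-101412352, plus strand, 179 to 51 bases before the start) holds 3 matches to the SP/KLF motif GGGCGG and 1 to the ETS motif GGAAGT. The Mchr1 region (chr15:81235156-81235331, plus strand) is shown in its part 250 to 168 bases before the start, chr15:81235249-81235331, and holds no match.
Fgfbp1 upstream: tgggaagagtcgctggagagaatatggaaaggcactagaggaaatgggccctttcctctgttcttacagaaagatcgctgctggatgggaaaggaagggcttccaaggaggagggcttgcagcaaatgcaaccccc
Fgfbp1 at the start: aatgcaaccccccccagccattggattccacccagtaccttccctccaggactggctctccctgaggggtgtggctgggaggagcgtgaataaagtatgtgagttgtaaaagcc
Pla2g5: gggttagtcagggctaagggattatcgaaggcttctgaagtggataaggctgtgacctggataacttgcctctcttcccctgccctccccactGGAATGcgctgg
Krt7: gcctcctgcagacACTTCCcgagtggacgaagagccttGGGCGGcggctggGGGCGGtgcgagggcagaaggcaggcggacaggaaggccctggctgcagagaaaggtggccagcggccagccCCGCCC
Mchr1: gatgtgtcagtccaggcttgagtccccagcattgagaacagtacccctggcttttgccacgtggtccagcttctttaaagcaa

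Across the promoter windows of the sequence table, from 250 bases before to 50 after a start, 103 of 32619 overlapped a day 14 only region and 11739 overlapped any wide day 14 interval. GGAATG was in 23.3% (24) of the windows with a day 14 only region, in 12.4% of those with any day 14 interval and in 14.6% of all windows. In the same order, the AP-1 motif was in 12.6% (13 windows), 5.22% and 7.85%, the forkhead motif in 7.77% (8), 2.84% and 3.67%, and the SOX motif in 8.74% (9), 2.13% and 3.68%. The E-box was in 21.4% (22), 15.3% and 16.4%, the nuclear factor I motif in 17.5% (18), 11.4% and 14.1%, and the RUNX motif in 6.8% (7), 3.67% and 5.29%. The SP/KLF motif was in 24.3% (25), 63.2% and 35.9%, and the CTCF core in 6.8% (7), 12.6% and 7.28%. For ETS the shares were 27.2% (28), 27.2% and 23.9%, for PU.1 16.5% (17), 13.5% and 13.4%, and for NF-kB 2.91% (3), 2.44% and 1.69%. Of the hepatocyte factors, the HNF4 motif was in 0% (0), 0.477% and 0.478%, and its shorter form in 5.83% (6), 3.99% and 4.46%. C/EBP was in 11.7% (12), 8.83% and 10.9%, and HNF1 in 6.8% (7), 4.62% and 7.1%. The windows with a day 14 only region had a median GC content of 52.7%, against 61.3% for those with any day 14 interval and 53% for all, and its part in the motif shares was not tested. Split by YAP1on, GGAATG was in 23.3% (14) of 60 windows with a region that overlapped it. It was in 22.4% (11) of 49 windows with a region that did not, and a window can count in both. All these shares count letters in a window and are no test of binding.

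The regions lay away from promoters. Of the 11880 regions on chromosomes with annotated starts in the tables used here (475 on chromosome 18 have none), 357 (3.005%, 95% Wilson interval 2.713 to 3.328) touched the window from 1000 bases before to 100 after a start, against 14.13% of all wide day 14 intervals. Bodies of protein-coding genes held 71.91% of the regions and 60.24% of all wide day 14 intervals, and 19.47% and 19.71% lay outside any annotated gene. The median distance to a start was 15332 bp for the regions and 8896.5 bp for all day 14 intervals. The table of starts is not complete, so single distances are upper limits. Regions of the day 64 list found there only had 2.672% at promoters and 59.47% in protein-coding bodies, with no test of the difference. Exons and introns could not be told apart with the tables used here. Intervals cover counting error only, and neighbouring regions are not independent.

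**Figure D1:**
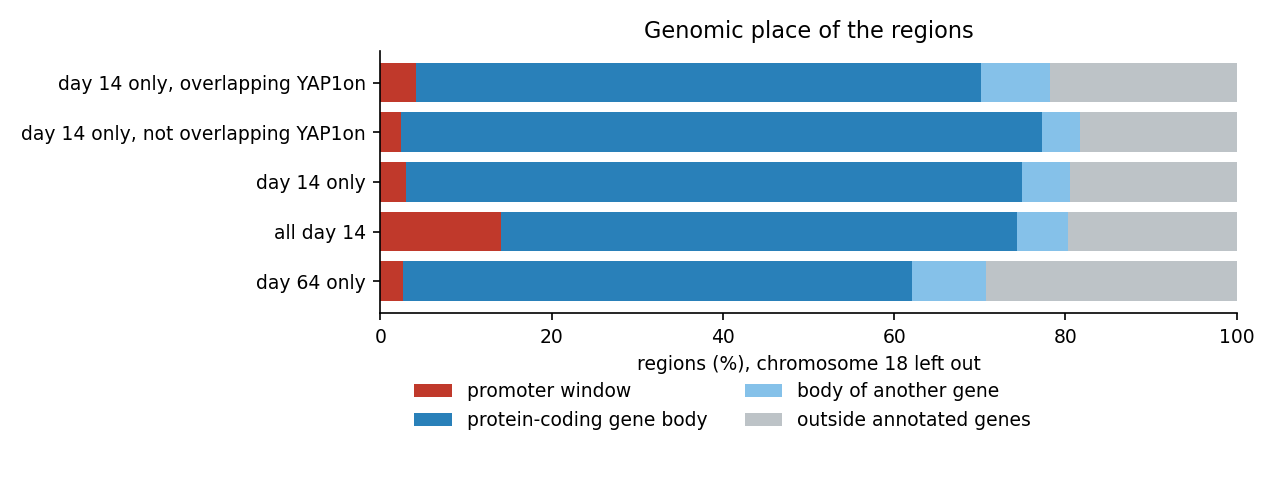
Share of regions (x axis, percent) in a promoter window, in the body of a protein-coding gene, in the body of another gene and outside annotated genes, for 5 sets (rows). Promoter windows hold 3.005% of the day 14 only regions and 14.13% of all wide day 14 intervals, and gene bodies hold most of both.

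The regions were narrow, and most had an interval of another list close by. Their median width was 116 bp (122 bp for all wide day 14 intervals), and the widest was 440 bp. The width limit left out 6450 intervals of 90 to 99 bp without overlap, while 4335 regions lay less than 10 bp inside it. The other limit left out 1374 intervals that shared 1 to 10 bases with another list. A later or liver interval lay within 500 bp of 9195 regions (74.42%) and within 5000 bp of 95.4%. Intervals of the day 14 list can overlap each other, and the 12355 regions merge into 11141 separate stretches.

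Fewer of the regions than of other day 14 intervals also had an interval in the YAP1on list. A YAP1on interval overlapped 4071 of the 12355 regions (32.95%, 95% Wilson interval 32.13 to 33.78), against 62.06% of all wide day 14 intervals and 68.78% of those found in all 3 other lists. The share was 11.46% for the day 33 only, 6.619% for the day 64 only and 11.56% for the liver only regions. Keeping only intervals missing from 3 other lists can by itself lower the share found in a further list. The part of this selection in the lower share was not tested. Over 5 width classes of day 14 only regions it went from 31.34% in the narrowest to 54.55% in the 22 of 300 bp or wider, and in each class it lay below that of shared day 14 intervals (59.75 to 87.51%). The YAP1on list is of another kind, with intervals of 5 to 162 bp and a median of 21 bp, and it covered a median of 25% of the bases of a region it touched. The score the authors give each YAP1on interval had a median of 34.5 on these regions, 64 on any wide day 14 interval and 39 over the list, so those on the regions scored lower at the median.

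**Figure D2:**
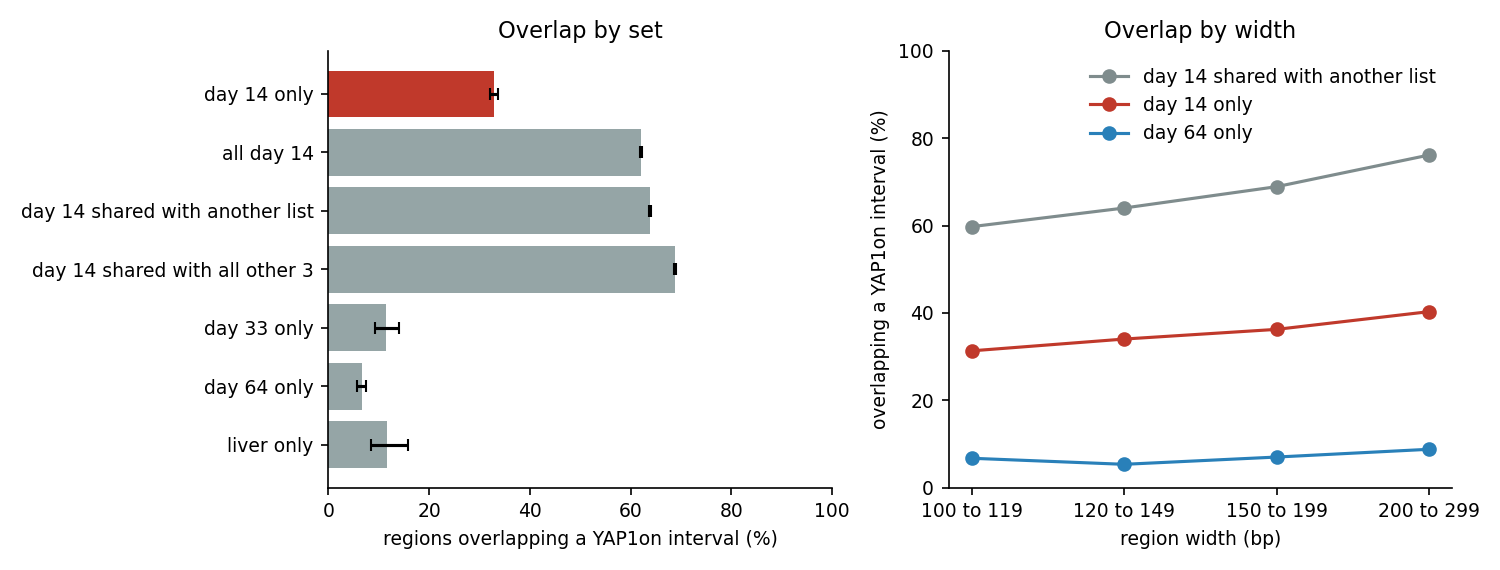
Left, share of regions overlapping a YAP1on interval (x axis, percent) for 7 sets, with 95% Wilson intervals as lines. Right, the same share (y axis, percent) by region width (x axis, bp) in the 4 narrower classes. Day 14 only regions lie between shared day 14 intervals and day 64 only regions in these 4 classes.

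Regions with and without a YAP1on interval differed in place. Those with one were at a promoter in 4.193% and lay a median of 12958 bp from a start, while the 8284 without one gave 2.422% and 16522 bp. On chromosome X, 50.33% of 302 regions overlapped YAP1on, the highest share of any chromosome, and on chromosome 19 21.7% of 636, the lowest. Chromosome 19 also gave the largest share of its day 14 intervals to the set (8.197%, against 4.739% on chromosome 11). Without chromosome X the overall overlap was 32.51%.

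The regions came in groups. Joined over gaps of up to 10 kb they formed 5098 loci, of which 2896 held a single region, and 152 loci of 10 or more held 3267 regions (26.44%). Single regions overlapped YAP1on in 41.09% and those of the 152 large loci in 21.82%. Protein-coding gene bodies with 10 or more regions numbered 141, with a median length of 108.8 kb against 17.15 kb for all genes. The genes named below as largest, by regions in the body, were picked after the counts were seen.

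Dpyd, which breaks down pyrimidines and the drug fluorouracil, held the most. Its body (chr3:118562109-119432924) had 180 regions, none of them on a YAP1on interval, out of 311 wide day 14 intervals (57.88%). One locus of 123.8 kb in it (chr3:118597521-118721329) had 153 regions, and the lists held 829 intervals of any width there at day 14, 147 at day 33, 30 at day 64 and 74 in liver. The locus was chosen for its regions, so these counts describe the choice. YAP1on, which the rule did not use, held 6. Its list is of another kind and the locus was picked for day 14 regions, so this count too is only a description. Dpyd RNA was 1163, 1344, 1582 and 1602 in YAP1on tumors and 4662, 5440, 4290 and 4298 in day 6 tumors, and ranged from 3760 to 4897 over the hbHep mice and from 4439 to 6495 over the FAH liver mice. The tumor groups did not overlap, while the ranges of day 6 tumors, hbHep and FAH liver did. The rise was 1.72 (log2, SE 0.15, limma adjusted p = 7.81e-07), and the change from day 6 tumors to hbHep was −0.10 (SE 0.16, limma adjusted p = 0.646).

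Members of the Cyp2c family, hepatocyte cytochrome P450 enzymes on chromosome 19, also had large groups. Cyp2c70, which makes muricholic acids from bile acids in mice, had 66 regions among 79 wide day 14 intervals of its body (83.54%), and Cyp2c68 had 35 of 38 (92.11%). None overlapped YAP1on. The widest of all regions (chr19:39811807-39812246, 440 bp) lay in Cyp2c40, 568 bp from its start. Cyp2c70 RNA was 2003, 2322, 2363 and 1733 in YAP1on and 9296, 9346, 8499 and 10838 in day 6 tumors, a rise of 2.18 (log2, SE 0.28, limma adjusted p = 3.6e-05), with 11729, 3473 and 7544 in hbHep and 18891, 12833 and 10777 in FAH liver. The hbHep mice lay on both sides of the day 6 range, and the change from day 6 did not pass (−0.49, SE 0.30, limma adjusted p = 0.2). Cyp2c40 RNA rose from 149.2 ± 58 to 2968 ± 575 in day 6 tumors (SD, n = 4 each; limma adjusted p = 6.41e-08) and ranged from 64.2 to 80.16 over the hbHep mice and from 42.47 to 84.82 over the FAH liver mice. Cyp2c68 was at 4383 ± 783 in YAP1on and 15185 ± 1348 in day 6 tumors (SD, n = 4 each; limma adjusted p = 3.28e-06), and at 2231 to 4395 in hbHep and FAH liver. Reads of near-identical Cyp2c genes can be shared among them, so single members are uncertain. Cyp4a12a, a gene known to be high in male mouse liver, held 0 intervals in the YAP1on and day 14 lists and 13 to 17 in the other 3, and its RNA was at 1.541 to 11.35 in tumors and 4746 to 30595 in hbHep and FAH liver. The part of sex in the Cyp2c regions was not tested.

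**Figure D3:**
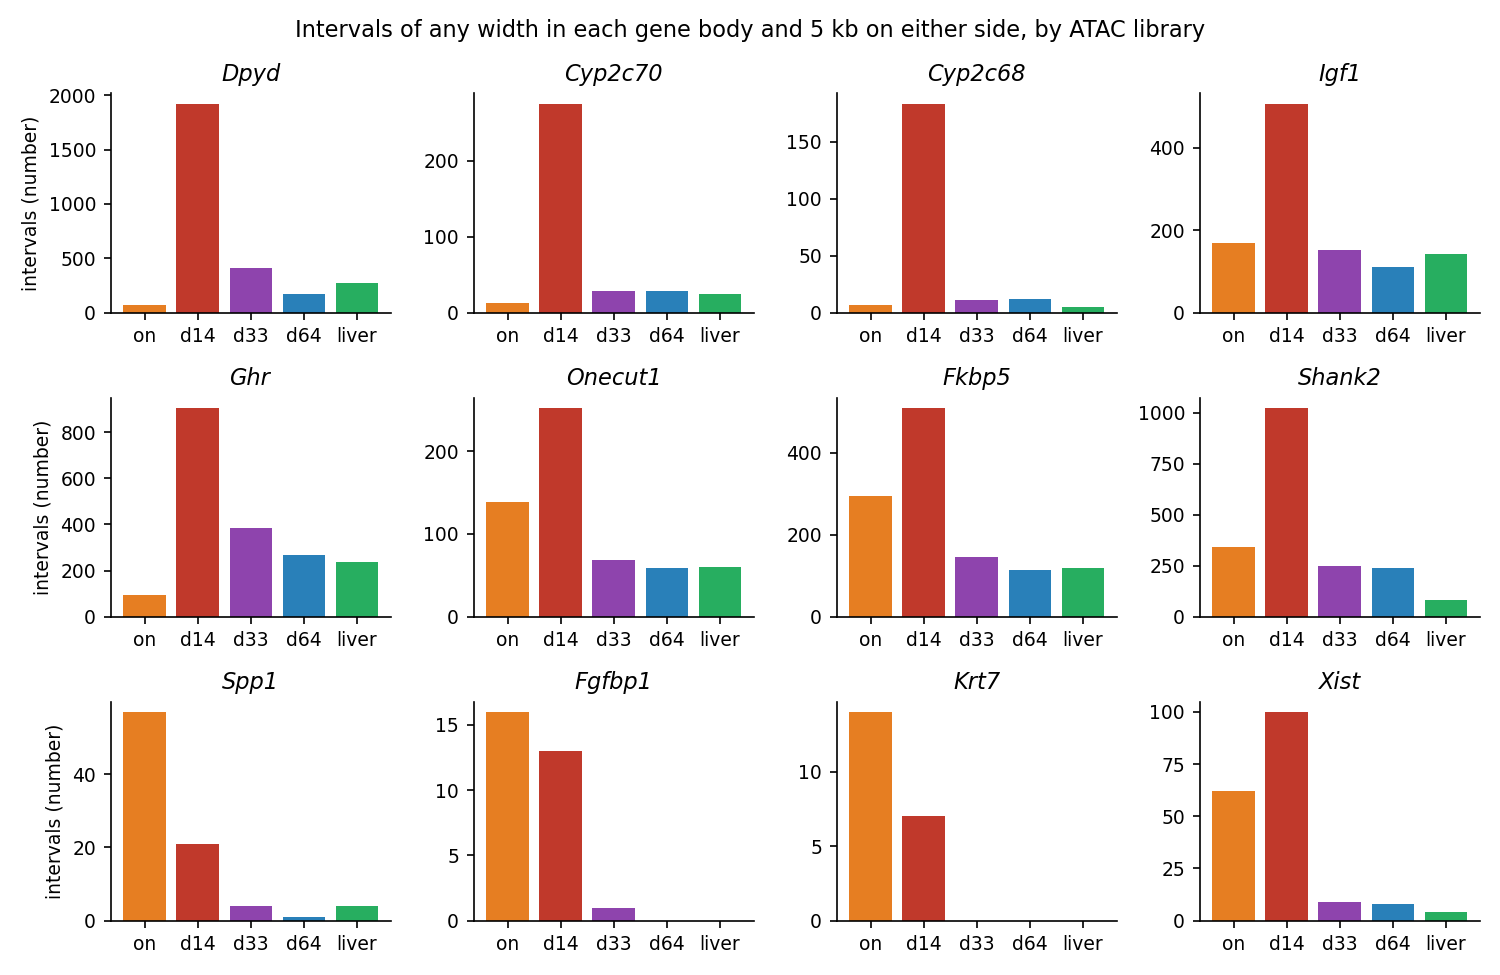
Number of intervals of any width (y axis, each panel from 0) in the body of 12 genes with 5 kb on either side, in the 5 ATAC libraries (x axis; on is YAP1on). The genes were chosen for their day 14 only regions or with results known, and the day 14 list is the longest, so day 14 standing above day 33, day 64 and liver is no result. YAP1on is above day 14 for Spp1, Fgfbp1 and Krt7 and below it for the other 9 genes. The rule did not use YAP1on, but its list is of another kind with narrower intervals. As the genes were also picked for day 14 regions or with results known, this contrast is a description only.

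Genes of growth hormone signalling had large groups as well. Igf1, which encodes the circulating growth factor made by hepatocytes, had 75 regions among 138 wide day 14 intervals (54.35%), 10 of them on YAP1on. Its RNA was 3966, 4191, 4840 and 4703 in YAP1on and 14800, 15821, 12257 and 15868 in day 6 tumors, then 4885, 2586 and 5579 in hbHep and 17641, 14460 and 13564 in FAH liver. Day 6 tumors and FAH liver were high and the other groups low, without overlap (day 6 minus YAP1on 1.73, SE 0.20, adjusted p = 1.28e-05; hbHep minus day 6 −1.82, SE 0.21, adjusted p = 8.39e-06, both limma on log2). Ghr, the hormone's receptor, had 43 regions of 116, none on YAP1on, and rose from 1375 ± 127 to 4880 ± 601 (SD, n = 4 each, limma adjusted p = 2.08e-06). Socs2, which damps the receptor's signal, had 25 of 44 (56.82%), none on YAP1on, and rose from 466 ± 32.7 to 945.4 ± 103 (SD, n = 4 each; limma adjusted p = 0.00244), with 292 to 397.8 in hbHep. Cish, another feedback inhibitor, had 11 of 22 in its body, and its RNA was 802.5 ± 140 and 1011 ± 66.7 in YAP1on and day 6 tumors (SD, n = 4 each; limma adjusted p = 0.269), with no overlap between the groups. These 4 genes were put together after their counts were seen.

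Hepatocyte transcription factors differed in how much of their open chromatin was found at day 14 only. In Onecut1, 40 of 70 wide day 14 intervals (57.14%) were, 12 of them on YAP1on, and one locus of 24.24 kb (chr9:74871325-74895562) had 44 regions. Of any width it held 168 intervals at day 14, with 10, 2 and 1 at day 33, at day 64 and in liver, where the choice of regions sets the contrast, and 47 in YAP1on. Onecut1, which the lists used here place with cholangiocyte and progenitor genes, did not pass between the tumor groups: its RNA was 1087 to 1727 in YAP1on and 1196 to 1648 in day 6 tumors (−0.09, SE 0.41, limma adjusted p = 0.915), and 1066, 176.3 and 1106 in hbHep against 2349 to 3009 in FAH liver. Hnf4a had 17 of 139 in its body and 1 at its upstream start, and its RNA was 1835 ± 376 in YAP1on and 2499 ± 267 in day 6 tumors (SD, n = 4 each; limma adjusted p = 0.0476), a call that was lost under 10 of the alternatives below. Over the list of 24 hepatocyte factors, which does not hold Onecut1, 45 of 1311 wide day 14 intervals in their bodies (3.432%) were day 14 only, under the 5.943% of all protein-coding genes. In day 6 tumors 11 of the 24 factors rose and 0 fell (limma; background 12.8% higher and 10.8% lower over 17953 genes). Nr1h4, the bile acid receptor, had 6 regions and rose by 0.71 (log2, limma adjusted p = 0.00307).

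Enzymes and secreted proteins of hepatocytes held few of the regions. Of 1500 wide day 14 intervals in the bodies of 32 such genes, 24 (1.6%) were day 14 only, 0 of them on YAP1on, and 19 of the 24 lay in Cps1, which feeds ammonia into the urea cycle. Cps1 RNA had a range of 23978 to 48649 in YAP1on and 105968 to 167617 in day 6 tumors. The hbHep range was 35897 to 69623 and that of FAH liver 275801 to 292829, so day 6 tumors lay between YAP1on and FAH liver without overlap. In this list 19 of 32 genes rose in day 6 tumors and 0 fell (limma; background 12.8% higher and 10.8% lower over all genes tested). Genes outside the list are given next for their number of regions, after the counts were seen, and 5.943% is the share over all protein-coding bodies. Upp2, a uridine phosphorylase, had 33 regions, none on YAP1on, and rose from 382.2 ± 39.7 to 2066 ± 446 (SD, n = 4 each; limma adjusted p = 2e-05), with values from 2133 to 6872 over the hbHep mice and from 22839 to 35385 over the FAH liver mice. Adk, adenosine kinase, had 106 regions of 907 (11.69%), 2 on YAP1on, and rose from 3852 ± 645 to 6765 ± 430 (SD, n = 4 each; limma adjusted p = 0.000592). Egfr, the receptor of epidermal growth factor, had 35 of 311 (3 on YAP1on) and Gfra1, a receptor of the GDNF family, 45 of 366 (none). Egfr RNA rose from 930.7 ± 227 to 2214 ± 336 and Gfra1 RNA from 1940 ± 451 to 3859 ± 594 in day 6 tumors (SD, n = 4 each; limma adjusted p = 0.0016 and 0.00329).

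The widest regions were of both kinds. Of the widest 5 without a YAP1on interval, besides that in Cyp2c40, one of 367 bp lay in Foxo1 (chr3:52332390-52332756) and one of 349 bp lay 21611 bp from the start of Neu3, a sialidase (chr7:99806458-99806806). A region of 335 bp (chr7:26119876-26120210) had as its nearest start that of Cyp2b9, a cytochrome P450, at 53199 bp. Cyp2b9 RNA was 205.3, 172.1, 352.4 and 213.9 in YAP1on and 3778, 5859, 2011 and 3692 in day 6 tumors, and ranged from 0 to 1.279 over the hbHep mice and from 0 to 4.326 over the FAH liver mice. As for Cyp2c40, day 6 tumors were far above the other groups (day 6 minus YAP1on 3.97 on the log2 scale, SE 0.48, limma adjusted p = 1.93e-05). Cyp2b9 itself, with 5 kb on either side, held 0 day 14 only regions. Its intervals of any width there numbered 2 in YAP1on, 9 at day 14, 8 at day 33, 7 at day 64 and 7 in liver. Ddx3y RNA also set the tumors apart from hbHep and FAH liver, and the part of sex in Cyp2b9 RNA was not tested. Among the widest with a YAP1on interval, one of 418 bp (chr5:125013883-125014300) lay outside annotated genes, and one of 401 bp lay in Glis2, a zinc finger factor (chr16:4602800-4603200).

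Other large groups lay in genes not called higher at day 6, and those on chromosome X are given last. Fkbp5, a chaperone partner induced by glucocorticoids, had 72 regions of 142, of which 29 were on YAP1on, and its RNA fell from 880.1 ± 78.1 to 567.6 ± 81.1 (SD, n = 4 each; limma adjusted p = 0.0042). Shank2, a scaffold protein, had 87 of 169 (51.48%), 10 on YAP1on, and its RNA was 3028 ± 505 and 2848 ± 263 in the tumor groups (limma adjusted p = 0.822), then 883.6 to 1840 in hbHep. Zmiz1, a transcriptional co-regulator, had 69 of 467, 21 on YAP1on, with no call between the tumor groups (adjusted p = 0.793). Lpin1, which regulates lipid synthesis, had 56 of 280, 3 on YAP1on, and its RNA was 2863 ± 527 and 3113 ± 492 in the tumors, and ranged from 4928 to 7255 over the hbHep mice and from 9712 to 13496 over the FAH liver mice. Foxo3 and Foxo1, factors restrained by insulin, had 34 and 27 regions, 6 and 1 on YAP1on, and neither passed between the tumor groups (limma adjusted p = 0.873 and 0.744). On chromosome X a locus that reaches into the body of Mid1 had 35 regions, 30 of them on YAP1on. Mid1 RNA was 733 to 965.4 in YAP1on and 1049 to 1362 in day 6 tumors, without overlap. This change did not pass (log2 0.46, SE 0.29, limma adjusted p = 0.288), but it did under 2 of the alternatives below. Firre, an X-linked noncoding RNA, had 41 regions with 5 kb on either side, 27 of them on YAP1on, and no RNA is given for it here.

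Several genes that fell after YAP1 was switched off had promoter regions on YAP1on intervals. Spp1, the secreted protein osteopontin of ductal and progenitor cells, had 4 regions at its starts, 3 of them on YAP1on, among them one of 370 bp (chr5:104433979-104434348) that ends 763 bp before the start. With 5 kb on either side it held 57 intervals in YAP1on, 21 at day 14, 4 at day 33, 1 at day 64 and 4 in liver. Spp1 RNA was 32582, 33424, 27394 and 35785 in YAP1on and 2595, 2634, 6515 and 2189 in day 6 tumors. In hbHep it ranged from 812.1 to 1265 and in FAH liver from 506.7 to 610.4. It fell by 3.35 (log2, SE 0.26, limma adjusted p = 3.19e-07) and each group lay below the one before without overlap. Fgfbp1, a carrier of fibroblast growth factors whose sequences are shown above, had 4 promoter regions, 3 on YAP1on, and held 16, 13, 1, 0 and 0 intervals in YAP1on, day 14, day 33, day 64 and liver. Its RNA was 1857, 3358, 2353 and 2087 in YAP1on and 189.1, 111.6, 171.3 and 108.2 in day 6 tumors, and ranged from 12.26 to 26.24 over the hbHep mice and from 0 to 1.542 over the FAH liver mice. The fall of 4.05 (log2, SE 0.32, limma adjusted p = 3.85e-07) was the largest of a promoter gene that passed. Krt7, a keratin of bile duct cells, held 14 and 7 intervals in YAP1on and day 14 and 0 in each of the other lists, and its RNA fell from 63.6 ± 15.3 to 18.44 ± 8.43 (SD, n = 4 each; limma adjusted p = 0.00324).

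**Figure D4:**
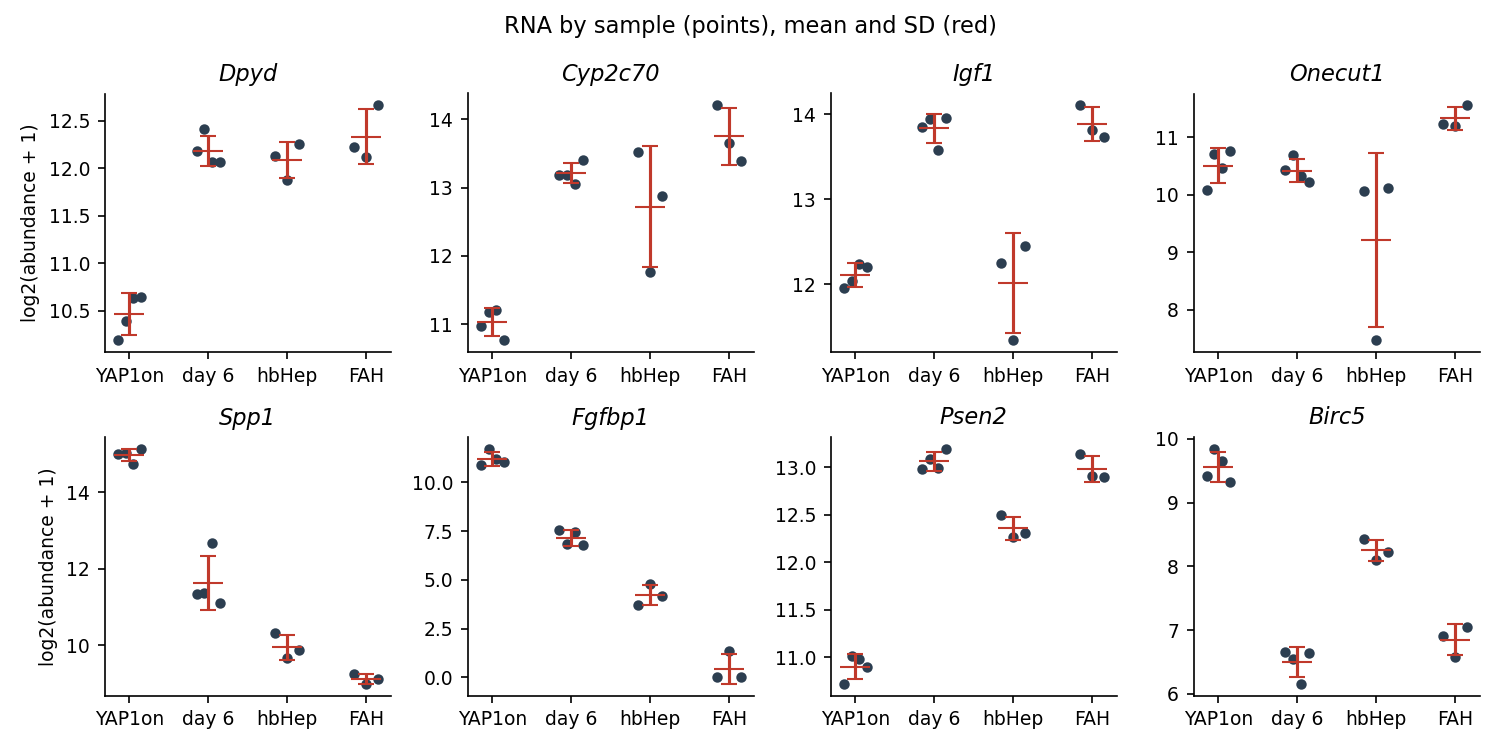
RNA as log2(abundance + 1) (y axis, not from 0) in every sample (points) of the 4 groups (x axis), with the mean and SD in red, for 8 genes with day 14 only regions. Dpyd, Cyp2c70, Igf1 and Psen2 are higher and Spp1, Fgfbp1 and Birc5 lower in day 6 than in YAP1on tumors without overlap, and Onecut1 overlaps between the tumor groups.

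Of 314 genes with a day 14 only region at a start, 220 were matched by symbol to the RNA table and 203 were tested. From YAP1on to day 6 tumors 25 rose (12.3%) and 41 fell (20.2%), against 12.8% and 10.8% of all 17953 genes tested (limma, adjusted p under 0.05). Of 9176 tested genes with any wide day 14 interval at a start, 15.8% rose and 12.2% fell. The median change was −0.11 over the genes with a day 14 only region and 0.02 over all (log2). For the 96 genes whose region overlapped YAP1on, 5 rose (5.21%) and 26 fell (27.1%), and for the 114 whose region did not, 20 rose (17.5%) and 19 fell (16.7%). Genes with regions of both kinds count in both sets, and the difference between the sets was not tested. Without day 6 tumor 1, 16 of the promoter genes rose. With only the tumor groups fitted 57 fell, and with quantile normalization 56. Of the 203, 53 rose and 50 fell from day 6 tumors to hbHep (background 24.1% and 21.7%), which is 26.1% and 24.6%. Between hbHep and FAH liver 45 were higher in hbHep and 41 lower (22.2% and 20.2%, background 19.9% and 17.1%). The 41 became 25 without hbHep mouse 2, and also without FAH liver mouse 1. The shares in these last 2 comparisons were near the background. The first 2 comparisons share the day 6 tumors and the last 2 share hbHep.

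Among the promoter genes, the largest rises and falls without overlap between the tumor groups were as follows. Psen2, a presenilin of the gamma-secretase complex, rose from 1918 ± 168 to 8571 ± 608 (2.16, SE 0.11), and Gstt3, a glutathione transferase, from 80.42 ± 13.3 to 328.1 ± 83.8 (1.99, SE 0.18). Slc6a12, a transporter of betaine and GABA, Aldh8a1, an aldehyde dehydrogenase, and Apol7a rose by 1.80, 1.71 and 1.41 (log2), Ptgds, prostaglandin D synthase, by 1.47, and Xlr3a, of a family of near-identical X-linked copies that can share reads, by 1.83. Dpyd, described above, also belongs here. Among these 8 genes the promoter regions of Slc6a12 and Ptgds were on YAP1on and the others were not. Besides Fgfbp1 and Spp1, the falls were led by Bex1 (105.9 ± 24.5 to 7.815 ± 5.73), Mchr1 (37.23 ± 13.4 to 2.002 ± 0.865), Pla2g5, a secreted phospholipase (131.2 ± 29.5 to 12.49 ± 5.84), Ect2, an activator of RhoA in cell division (249.6 ± 44.4 to 32.49 ± 9.15), Fxyd3, a regulator of the sodium pump (1110 ± 345 to 175.7 ± 111), and Parpbp (43.48 ± 6.89 to 7.045 ± 5.29; all SD, n = 4 each). All of these passed in limma (adjusted p from 7.25e-09 for Psen2 to 0.0406 for Xlr3a). Bex1 ranged from 46.79 to 137.4 over the hbHep mice and from 2.414 to 6.76 over the FAH liver mice, and the hbHep and YAP1on ranges overlapped.

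From day 6 tumors to hbHep, the promoter genes Mettl7a2 (3.423 ± 0.687 to 344.3, 592.4 and 710.9), Lnx1 and Nqo1, a quinone reductase of the oxidative stress response, rose, by 6.91, 2.87 and 2.35 (log2), and Bex1 by 3.46. The region at Lnx1 was on YAP1on and those at the other 3 were not. Ptgds, Hamp2, a relative of the iron hormone hepcidin, Cux2, a transcription factor known to be high in female mouse liver, and Fxyd3 fell, with log2 changes of −5.40, −4.29, −3.16 and −3.10. The regions at these 4 genes were on YAP1on. Cux2 was at 473.7 to 573.2 in day 6 tumors, and ranged from 34.88 to 75.52 over the hbHep mice and from 39.35 to 85.91 over the FAH liver mice.

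Genes with several regions in the body were also split by overlap with YAP1on. In 98 genes with 5 or more regions of which none overlapped YAP1on, 54 rose (55.1%) and 3 fell (3.06%) from YAP1on to day 6 tumors, with a median of 0.49 (log2). In the 105 tested genes with 5 or more regions of which 50% or more overlapped YAP1on, 9 rose (8.57%) and 24 fell (22.9%), with a median of −0.16. The background was 12.8% and 10.8%, and among the 7560 tested genes with 5 or more wide day 14 intervals of any kind 20.3% rose and 10.7% fell. Genes whose 5 or more shared day 14 intervals all missed YAP1on were few: 12 of 35 tested rose (34.3%) and 2 fell. In hbHep against FAH liver, 31 of the 98 were lower and 15 higher (31.6% and 15.3%), and 13 of the 105 were lower and 37 higher (12.4% and 35.2%), against a background of 17.1% lower and 19.9% higher. Of the 35 genes with shared intervals that all missed YAP1on, 13 were lower and 5 higher (37.1% and 14.3%). Over the alternatives of the RNA fit the 54 ranged from 47 to 56 and the 3 from 1 to 5. The 24 became 37 with quantile normalization, and the 31 and 15 became 18 and 9 when hbHep and FAH liver were fitted alone. The 3 became 1 without day 6 tumor 1 or 2 or YAP1on tumor 2. Both sets were formed after seeing the data, and the difference between them was not tested.

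**Figure D5:**
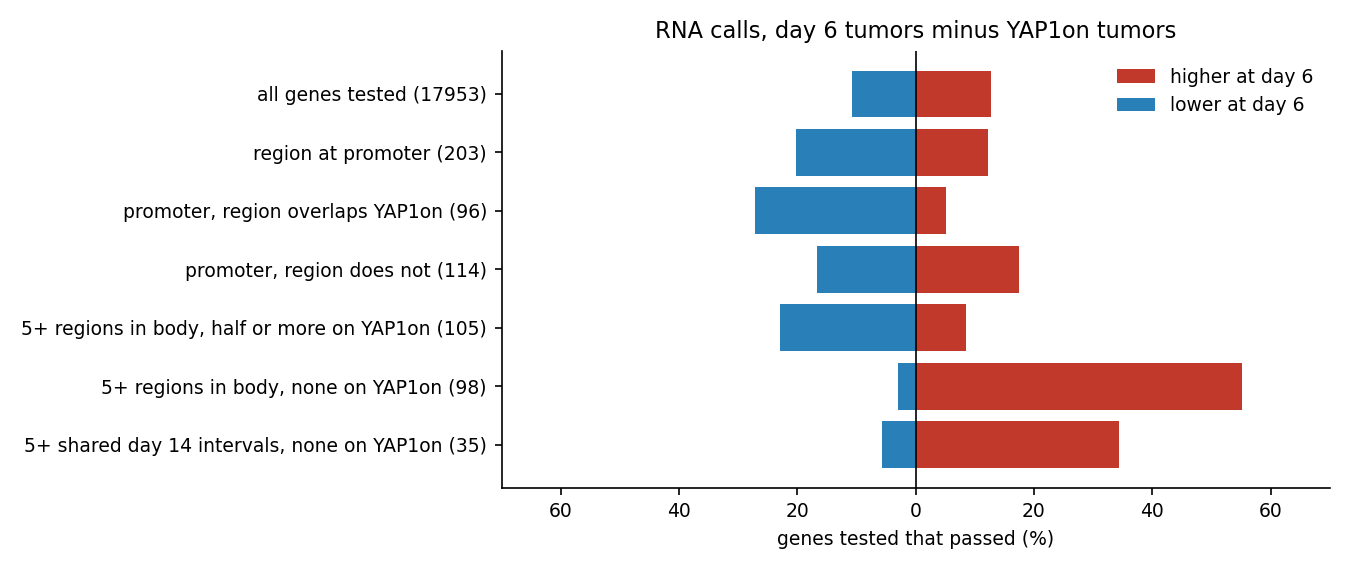
Share of tested genes that were higher (red, to the right) or lower (blue, to the left) in day 6 than in YAP1on tumors (x axis, percent; limma, adjusted p under 0.05), for gene sets by where their day 14 only regions lie, with the number of genes tested in brackets. Genes with 5 or more regions in the body and none on YAP1on have 55.1% higher, against 12.8% of all genes.

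Lists of YAP1 targets and of other cell types show where the regions did and did not fall. None of 30 YAP1 target genes had a region at a start, against 224 of 21631 protein-coding genes on the chromosomes used. The 21631 include genes of chromosome 18, which has no starts in the tables used here. At a share this low, a count of 0 among 30 does not stand apart from the background. In the body 11 of the 30 held one (36.7%), against 13.5% of those protein-coding genes. The 30 were also longer, with a median of 38.45 kb against 17.33 kb. Of 428 wide day 14 intervals in their bodies 40 (9.346%) were day 14 only, 25 of the 40 on YAP1on. The most were in Ptpn14, a phosphatase that binds YAP1, with 9 of 36, one of them 404 bp wide (chr1:189757239-189757642), and its RNA fell from 1066 ± 223 to 372.5 ± 87 (SD, n = 4 each; limma adjusted p = 0.001) and was 546.1 to 1424 in hbHep. Tead1, the DNA-binding partner of YAP1, had 4 of 28 and fell by 1.38. The share over all protein-coding bodies was 5.943%. In the list, 19 of 29 tested genes fell and 4 rose in day 6 tumors, against a background of 10.8% lower and 12.8% higher. Cholangiocyte and liver progenitor genes had 57 of 237 (24.05%), of which 40 were in Onecut1, and 13 of 27 tested fell. Bicc1, an RNA-binding protein of duct cells, had 7, 5 of them on YAP1on, and fell by 1.82 (log2). Birc5, an inhibitor of cell death in dividing cells, had 1 of 3 in its body and 8 regions nearest to its start. Its RNA fell from 763.2 ± 126 to 90.26 ± 13.7 in day 6 tumors. The mitosis list, which holds Birc5, had 1 of 30 wide day 14 intervals in its bodies (3.333%), under the 5.943% of all. All 20 genes of that list fell in day 6 tumors.

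Lists of other cell types held small numbers of regions, and their shares lay on both sides of the 5.943% over all protein-coding bodies. Macrophage and Kupffer cell markers had 10 of 72 wide day 14 intervals (13.89%), 5 of them in Spi1, the master factor of the lineage, and 6 of 24 fell and 0 rose in day 6 tumors (background 10.8% lower and 12.8% higher). The stellate cell and matrix list had 21 of 127 (16.54%), 17 of them in Fn1, which hepatocytes also express, and 10 of 25 fell and 0 rose. Neutrophil genes had 1 of 9 (11.11%), neuronal genes 9 of 159 (5.66%), T, NK and B cell genes 1 of 34 (2.941%) and endothelial genes 1 of 173 (0.578%). Fetal liver genes had 4 of 124 (3.226%), 2 of them in Bex1, and AP-1 and immediate early genes 5 of 289 (1.73%). The part of other cell types in the regions was not tested. Of 1005 miRNA hairpins in the sequence table, 30 lay within 1 kb of a day 14 only region and 265 within 1 kb of any wide day 14 interval, and Mir25, Mir93 and Mir106b, which share 1 transcript, were among the 30.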

How the data were processed

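The authors deposited 1 list of ATAC intervals (mm10) for each library. Per the submitters' processing notes, the tools were BWA, Picard, SAMtools, cutadapt and bcl2fastq. For the calling program, its threshold, a shift of read ends and the read depth, nothing is given in the sources used here. Beside each YAP1on interval the authors deposited a score, a whole number of unstated meaning, and the last column of the other 4 lists was left out. RNA was deposited by the authors as a signal per gene, read here as scaled reads per base. The submitters' processing notes name sleuth, kallisto 0.45.0 and GRCm38.p6. Read counts were not recovered from it, so depth is not given.

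Overlap meant 1 shared base. Starts and gene bodies came from RefSeq GRCm38.p6, and the tables used here have no starts on chromosome 18. RNA values of 2 libraries of each hbHep mouse were averaged (14 samples), scaled by median-of-ratios factors (0.9632 to 1.1) and called abundance. Genes at 10 or more in at least 3 samples (17953 of 36555) were tested on log2(abundance + 1) with limma 3.58.1 in R 4.3.3 (4 groups, trend, Benjamini-Hochberg, 0.05), which understates changes of low genes. limma was tested on simulated data for day 6 minus YAP1on tumors, and the interval code on drawn intervals.

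Named genes were the nearest protein-coding genes of the widest regions with and without a YAP1on interval, genes near most regions, the promoter genes that changed most without overlap between groups, and list members with regions. Gene bodies with most regions were added. Symbols matched the RNA table for 220 of 314 promoter genes. The members, gene lists and tests were chosen with earlier results of these data known. Alternatives covered the width and overlap limits, the promoter window and the RNA fit.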

Additional observations from a re-analysis of the deposited data

Results flagged for a closer look

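Of 104 groups of 4 tumors checked for the genes printed, 3 held a sample far from the others, and chance alone flags about 1 in 20. Spp1 was at 6515 in the third day 6 tumor and at 2189 to 2634 in the other 3. Lpin1 was at 3846 in the second day 6 tumor, with 2807 to 2953 in the others, and Fkbp5 was at 688.8 in the same tumor, with 518.2 to 532.7 in the others.

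Chromosome Y was outside the chromosomes used. The day 14 list held 1901 intervals of 100 bp or wider there, against 223 at day 33, 166 at day 64, 79 in liver and 0 in the YAP1on list, while at single chromosome Y genes the day 14 list held 0 intervals of any width at Eif2s3y, 3 at Ddx3y, 23 at Kdm5d and 53 at Uty. Of any width, chromosome Y held 16252 at day 14, 7078 in YAP1on, 2815 at day 33, 5071 at day 64 and 4062 in liver.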

How the results depend on the processing

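The number of regions depended on the limits of the rule. It was 337 at a width of 200 bp, 22 at 300 bp, 35383 when only cover of 50% or more excluded an interval, 3160 when an interval within 500 bp excluded it too, and 65464 when only other intervals of 100 bp or wider excluded it. Overlap with YAP1on under these settings was 41.25%, 54.55%, 41.65%, 32.72% and 48.64%, and the share at a promoter 3.681%, 4.545%, 4.93%, 1.749% and 7.434%. Overlap fell to 5.067% when 50% of the bases had to be covered and to 0% with YAP1on intervals of 100 bp or wider. A promoter window of 2500 bp before to 500 bp after gave 8.754%. Without the loci of 10 or more regions, chosen after seeing the data as was leaving out chromosome X, overlap was 36.95% and the promoter share 3.666%.

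Counts of promoter genes, higher then lower, in the wider window were 83 and 86 (day 6 minus YAP1on), 165 and 114 (hbHep minus day 6) and 111 and 106 (hbHep minus FAH liver). With regions of 200 bp or wider 6 genes were tested, giving 0 and 1, 0 and 2, and 2 and 1 in limma, and the same counts at an unadjusted p under 0.05. Fitting only hbHep and FAH liver gave 24 and 24. Leaving out 1 sample gave 16 to 24 and 36 to 45, 46 to 52 and 46 to 49, and 35 to 43 and 25 to 39. The 16 came without day 6 tumor 1, and the 25 without hbHep mouse 2 and again without FAH mouse 1. With a replicate block, the counts were 24 and 47 for day 6 minus YAP1on and 27 and 27 for hbHep minus FAH liver, although the numbers did not pair samples (correlations from −0.2301 to 0.1874). For single genes, 1828 values under an alternative kept their side of the threshold, 77 lost a call, 40 gained one, and 0 called values changed sign. Of the counts of genes with 5 or more regions, 150 stayed within 1.5 times and 10 moved further. ATAC depth is unknown, so an interval missing from a list may have been below its limit.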
